A study of Mus musculus with 8 samples.

Results

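Interferon-stimulated genes are the genes that a cell turns on when an interferon binds its receptor. A set of 41 of them was followed by symbol in liver RNA of mice with a hepatocyte deletion of Opa1, the GTPase that fuses the inner mitochondrial membrane. All 41 were among the 35976 genes of the count table, and all 41 were among the 14036 genes with enough counts to test. The liver samples fell into 5 CTRL and 3 OPA1_LKO, and both groups were on a High Fat Diet. The labels name the deletion as one in hepatocytes, but the RNA came from liver tissue, which also holds Kupffer cells, endothelium and other cells. In such bulk tissue, fewer cells of a type and less RNA per cell cannot be told apart. The labels used here name no Cre driver, strain, sex or age. They do not say that each sample is a separate animal, so p-values measure only the spread between these samples.

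Type I interferons signal through the receptor chains Ifnar1 and Ifnar2 and the kinases Jak1 and Tyk2. The signal reaches a complex with Stat2 and Irf9 that binds the interferon-stimulated response element (ISRE). Interferon gamma acts through Ifngr1 and Ifngr2, and its target genes often carry a gamma-activated site (GAS). RNA and DNA sensors lie upstream of interferon production, and mitochondrial nucleic acids released into the cytosol can engage them.

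Promoter windows ran from 250 bases before to 50 after a start site of the gene in RefSeq on GRCm38.p6. They were at hand for 31 of the 41 genes. For some genes, such as Oas1a, that site lies inside the gene's annotated span. The ISRE core was searched as GAAA, any 2 bases and GAAA again, and the GAS core as TTCNNNGAA, on both strands. The windows below show the matches in 4 of the genes that were lower in OPA1_LKO (Ifit1, Irgm1, Gbp7 and Irf1) and in 2 genes that did not pass the test (Isg15 and Oas1a). Capitals mark matches to either motif, and a match on the other strand of an ISRE core reads TTTC, any 2 bases and TTTC.
Ifit1: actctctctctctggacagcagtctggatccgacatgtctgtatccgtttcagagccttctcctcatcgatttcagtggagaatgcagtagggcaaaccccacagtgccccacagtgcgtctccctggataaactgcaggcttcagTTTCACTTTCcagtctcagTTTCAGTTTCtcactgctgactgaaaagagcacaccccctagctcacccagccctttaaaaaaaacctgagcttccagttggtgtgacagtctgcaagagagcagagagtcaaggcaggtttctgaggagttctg
Irgm1: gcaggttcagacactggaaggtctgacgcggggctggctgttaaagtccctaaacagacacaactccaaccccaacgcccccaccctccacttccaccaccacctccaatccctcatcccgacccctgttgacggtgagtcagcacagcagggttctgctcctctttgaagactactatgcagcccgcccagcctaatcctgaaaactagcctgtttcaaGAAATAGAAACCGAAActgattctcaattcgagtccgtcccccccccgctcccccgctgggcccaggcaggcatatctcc
Gbp7: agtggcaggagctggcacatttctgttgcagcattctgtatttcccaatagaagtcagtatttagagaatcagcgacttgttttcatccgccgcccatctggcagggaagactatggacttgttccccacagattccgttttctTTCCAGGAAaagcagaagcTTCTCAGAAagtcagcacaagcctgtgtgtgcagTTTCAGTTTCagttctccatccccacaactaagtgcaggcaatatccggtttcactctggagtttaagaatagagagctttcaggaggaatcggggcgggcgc
Irf1: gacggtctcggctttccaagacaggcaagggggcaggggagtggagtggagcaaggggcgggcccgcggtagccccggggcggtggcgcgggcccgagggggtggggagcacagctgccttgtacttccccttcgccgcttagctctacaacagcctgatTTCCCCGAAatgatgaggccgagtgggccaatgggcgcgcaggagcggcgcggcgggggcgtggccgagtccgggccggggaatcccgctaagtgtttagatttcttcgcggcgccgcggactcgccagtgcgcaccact
Isg15: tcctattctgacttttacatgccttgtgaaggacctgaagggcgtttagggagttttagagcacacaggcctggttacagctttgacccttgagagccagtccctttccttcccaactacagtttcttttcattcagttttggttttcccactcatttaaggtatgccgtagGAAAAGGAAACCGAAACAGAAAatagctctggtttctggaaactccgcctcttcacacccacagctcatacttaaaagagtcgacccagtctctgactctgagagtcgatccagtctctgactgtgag
Oas1a: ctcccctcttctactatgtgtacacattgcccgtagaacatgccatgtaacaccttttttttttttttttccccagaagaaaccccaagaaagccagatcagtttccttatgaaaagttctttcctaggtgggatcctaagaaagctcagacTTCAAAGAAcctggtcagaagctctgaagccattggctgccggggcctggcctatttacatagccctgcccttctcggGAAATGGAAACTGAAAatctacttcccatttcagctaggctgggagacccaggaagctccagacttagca
The Ifit1 window is chr19:34640639-34640938 on the plus strand and holds ISRE cores beginning 104 and 85 bases before the start. The Irgm1 window is chr11:48871371-48871670 on the minus strand, with overlapping ISRE cores at 30 and 24 bases. The Gbp7 window is chr3:142530086-142530385 on the plus strand, with an ISRE core at 53 bases and GAS cores at 106 and 87 bases. The window of Irf1, chr11:53769764-53770063 on the plus strand, holds a GAS core at 90 bases. It differs from these in having no match to the ISRE core. The Isg15 window is chr4:156200769-156201068 on the minus strand and holds a run of overlapping ISRE cores at 78, 72 and 66 bases. The Oas1a window is chr5:120907476-120907775 on the minus strand, with ISRE cores at 20 and 14 bases and a GAS core at 98 bases.

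An ISRE core lay in the window of 19 of the 31 genes, or 61.3%, against 3.99% of all 27025 genes with a window. A GAS core lay in 9 of the 31, or 29.0%, against 9.55% of all. Among the genes lower in OPA1_LKO, 4 of 7 held an ISRE core, and among the genes with a window that did not pass the test, 15 of 24 did. These shares are 57.1% and 62.5%. Of the genes lower in OPA1_LKO, Oasl1 and Dtx3l, whose windows are not shown, held no match to either core. A second window of Irf1, also not shown, held none.

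The libraries held 16076392 to 20471256 estimated reads on genes. All CPM values here are counts scaled to library sizes adjusted by trimmed mean of M-values (TMM), and listed in replicate order. As a check of the labels, Opa1 measured 39.9, 51.9, 44.0, 57.6 and 46.9 CPM across CTRL, against 24.7, 34.4 and 34.0 CPM across OPA1_LKO. No OPA1_LKO library reached the lowest CTRL, with a log2 fold change of -0.63 (SE 0.17, adjusted p = 0.0539 by edgeR's quasi-likelihood test). It was -0.69 (adjusted p = 0.0272) without CTRL replicate 1. CTRL replicate 1 stood apart from the other libraries: Apoe was at 133.8 CPM in it, against 20759 to 33180 CPM in the other 7 libraries, and Xist was at 8.13 CPM against at most 0.112 CPM in the other CTRL. The Y-linked gene Ddx3y had counts in every library, at 7.91 CPM in CTRL replicate 1 against 10.9 to 26.9 CPM in the other CTRL. The labels give no difference between CTRL replicate 1 and the other CTRL. Whether it comes from an animal of the same genotype and sex as they do is not known here. The CTRL means thus rest in part on that library. The main counts, the score and the fold changes of the genes that passed are therefore also given without it below. For the other genes the text gives such values for some only, and a later figure shows the fold changes of all the interferon-stimulated genes. Fits by methods other than edgeR include it.

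Of the 41 genes, 7 were lower in OPA1_LKO and 0 were higher at an adjusted p under 0.05, and 20 were at an unadjusted p under 0.05 in either direction, as were 23.8% of all tested genes. Over all 14036 tested genes, 2.69% were called lower, 3.34% higher and 6.03% in either direction. The 7 were Ddx58, Oasl1, Ifit1, Irf1, Dtx3l, Gbp7 and Irgm1, which lay 1.68-fold to 2.61-fold below CTRL. For 38 of the 41 the log2 fold change was negative, as it was for 53.1% of all tested genes. The median log2 fold change of the 41 was -0.67, beside -0.03 over all tested genes. For 13 of the 41, no OPA1_LKO library reached the lowest CTRL in CPM, as for 8.41% of all tested genes, and for 0 of the 41 did every OPA1_LKO library exceed the highest CTRL (8% of all). Set against CTRL replicates 2 to 5 alone, 13 were below, beside 12.9% of all genes, and 2 (Oas1b and Oas2) were above, beside 13.2%.

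Without CTRL replicate 1, 9 of the 41 were lower and 0 were higher, against 5.59% of all genes called lower and 6.65% higher in that fit. The 7 genes above were all among the 9, with Cmpk2 and Parp9 added. The number of negative log2 fold changes dropped to 28 of 41, beside 51.6% of all genes, and the median to -0.47. DESeq2 called 14 of the 41 lower and 0 higher, against 6.06% of all genes lower, and these 14 included the 7. With any other single library left out the count ranged from 0 to 8. It was 8 without CTRL replicate 3 and 6 without CTRL replicate 4, against 1.9% and 1.38% of all genes lower. It was 4 without CTRL replicate 2 and 3 without CTRL replicate 5, against 1.39% and 1.23%. It was 3 (Dtx3l, Irgm1 and Rtp4) without OPA1_LKO replicate 2, against 1.66%. Without OPA1_LKO replicate 1 or without replicate 3, edgeR called 0 of the 41, against 0.377% and 0.498% of all genes, with 16 and 10 of the 41 at an unadjusted p under 0.05, beside 15.5% and 16.4% of all genes. On log2(TPM + 1), where TPM is the transcript abundance per length and limma the test, 0 of the 41 were called, against 0.599% of all genes lower, and 5 were at an unadjusted p under 0.05, beside 18.1% of all genes. On that scale 30 of the 41 were negative, beside 36.8% of all genes.

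**Figure D1:**
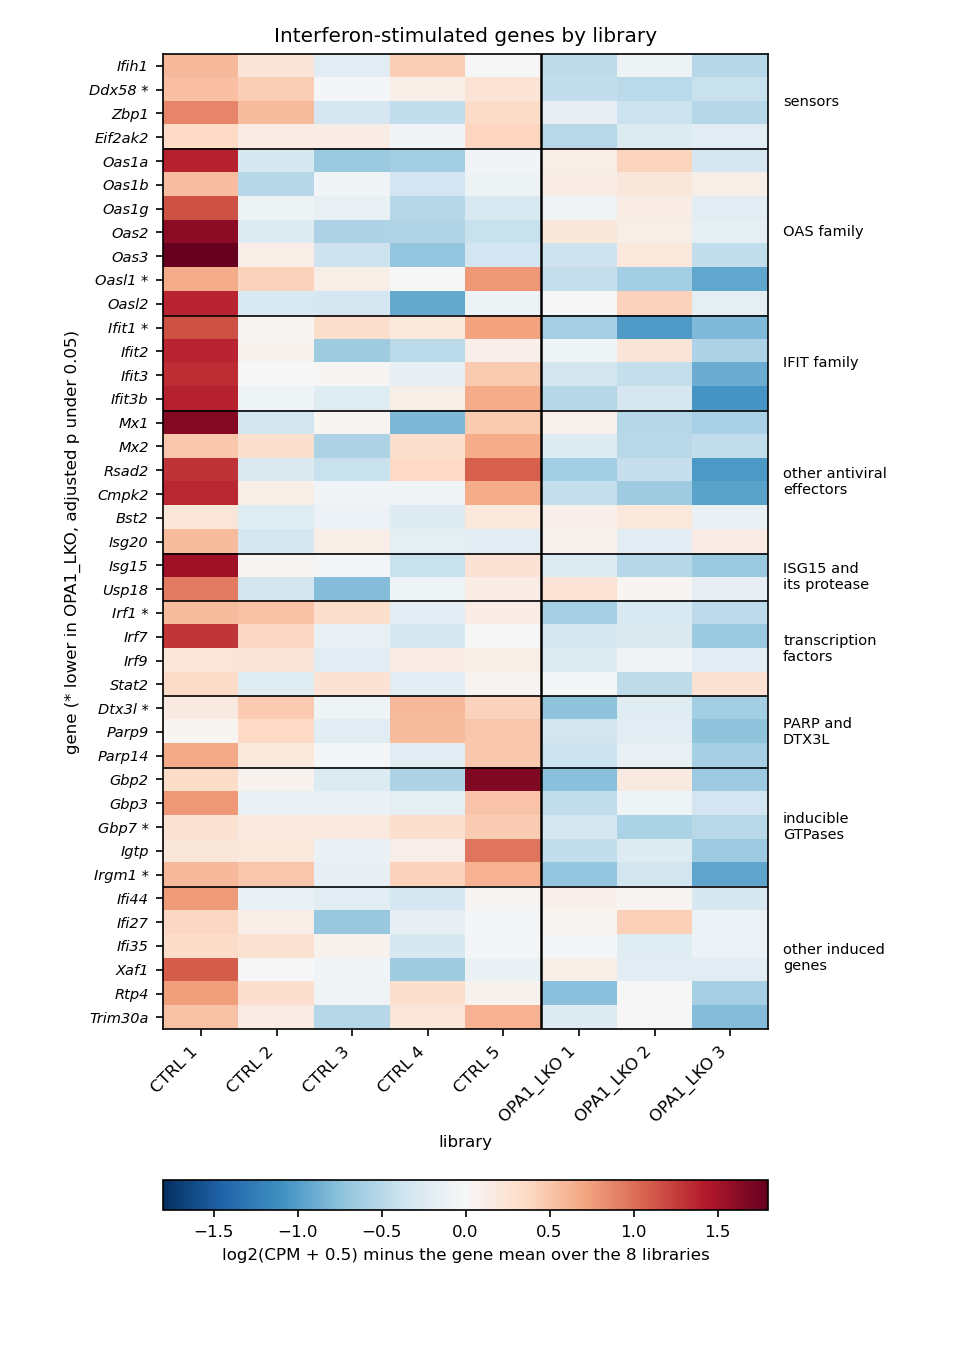
Heat map of the 41 genes (rows, grouped by role) in the 8 libraries (columns), as log2(CPM + 0.5) minus the gene's mean over the 8 libraries. CTRL replicate 1 was the highest of the 8 libraries for 29 of the genes, and OPA1_LKO replicate 3 was the lowest for 14.

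The mean of log2 CPM over the 41 genes gave a score for each library. It was 4.51, 3.73, 3.49, 3.51 and 3.96 in CTRL and 3.39, 3.48 and 3.17 in OPA1_LKO. The OPA1_LKO libraries had the 3 lowest scores, and CTRL replicates 3 and 4 lay just above OPA1_LKO replicate 2. The group means were 3.84 ± 0.42 (SD, n = 5) and 3.35 ± 0.16 (SD, n = 3), a difference of -0.49. Without CTRL replicate 1 the CTRL mean was 3.67 ± 0.22 and the difference -0.33. CTRL replicate 1 was the highest of the 8 libraries for 29 of the 41 genes, beside 13.5% of all tested genes, and CTRL replicate 5 for 8.

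The sensors of foreign nucleic acid comprised Ddx58 (RIG-I) and Ifih1 (MDA5), which bind double-stranded RNA, Zbp1, which binds Z-form nucleic acid, and Eif2ak2 (PKR), the RNA-activated kinase that halts translation. Ddx58 measured 24.2, 22.6, 16.3, 18.04 and 19.8 CPM across CTRL, against 12.0, 11.6 and 12.4 CPM across OPA1_LKO. The 3 OPA1_LKO libraries lay close together below every CTRL library. The means were 20.2 ± 3.25 and 12.0 ± 0.393 CPM, with a log2 fold change of -0.75 (SE 0.15, adjusted p = 0.0218 by edgeR), and -0.67 (adjusted p = 0.0201) without CTRL replicate 1.

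Ifih1, whose product senses long double-stranded RNA, measured 27.9, 21.7, 16.05, 25.2 and 18.5 CPM across CTRL, against 13.3, 17.2 and 12.8 CPM across OPA1_LKO. One OPA1_LKO library overlapped the lowest CTRL, and the log2 fold change of -0.59 (SE 0.20) had an adjusted p of 0.107 by edgeR. Eif2ak2 measured 12.4, 10.5, 10.6, 9.19 and 12.6 CPM across CTRL, against 6.60, 7.96 and 8.23 CPM across OPA1_LKO. Its groups did not overlap, but the log2 fold change of -0.54 (SE 0.16) did not pass (adjusted p = 0.0765). Zbp1 was at 22.4, 18.1, 9.67, 8.64 and 15.4 CPM against 10.8, 9.09 and 8.23 CPM, with overlapping groups and an adjusted p of 0.213.

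The OAS family makes 2-prime,5-prime-oligoadenylates that activate the nuclease RNase L, while the OAS-like Oasl1 is known in mouse to restrain translation of Irf7. Oasl1 measured 20.6, 17.1, 13.7, 12.7 and 22.1 CPM across CTRL, against 9.33, 8.14 and 6.39 CPM across OPA1_LKO. Every OPA1_LKO library was below every CTRL library, and the lowest OPA1_LKO value came from replicate 3. The log2 fold change was -1.11 (SE 0.22, adjusted p = 0.0192 by edgeR), and -1.04 (adjusted p = 0.0184) without CTRL replicate 1.

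The other 6 family members did not pass the test, and their CTRL values were led by CTRL replicate 1. Oas1a measured 22.3, 6.63, 4.98, 5.21 and 7.91 CPM across CTRL, against 8.91, 10.97 and 6.57 CPM across OPA1_LKO. Oas2 was at 24.9, 6.57, 5.20, 5.21 and 5.79 CPM against 9.14, 8.46 and 6.87 CPM. In both genes the OPA1_LKO libraries lay below CTRL replicate 1, and in Oas2 they lay above the other CTRL. The log2 fold change of Oas1a was -0.09 (SE 0.47, adjusted p = 0.926 by edgeR) and went to 0.52 (adjusted p = 0.165) without CTRL replicate 1. That of Oas2 was -0.23 (SE 0.52, adjusted p = 0.825) and went to 0.52 (adjusted p = 0.0845).

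Oasl2, which lies 10898 bases from Oasl1 on chromosome 5, measured 22.1, 6.74, 6.54, 4.12 and 7.73 CPM across CTRL, against 8.27, 11.2 and 7.22 CPM across OPA1_LKO. Its log2 fold change was -0.09 (SE 0.47), and the difference from Oasl1 was not tested. Oas3 was at 8.50, 2.08, 1.34, 0.960 and 1.37 CPM against 1.34, 2.20 and 1.24 CPM. CTRL replicate 1 was again far above the other CTRL. Oas1g was at 5.89, 2.19, 2.12, 1.51 and 1.89 CPM against 2.26, 2.65 and 2.01 CPM. Oas1b, which the RefSeq annotation of this build marks as a transcribed pseudogene, was at 4.78, 2.02, 2.96, 2.33 and 2.86 CPM against 3.46, 3.64 and 3.37 CPM. RSEM divides reads shared by near-identical genes by estimation, so the split between Oas1a and Oas1g, between Ifit3 and Ifit3b and among the Gbp genes is uncertain.

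**Figure D2:**
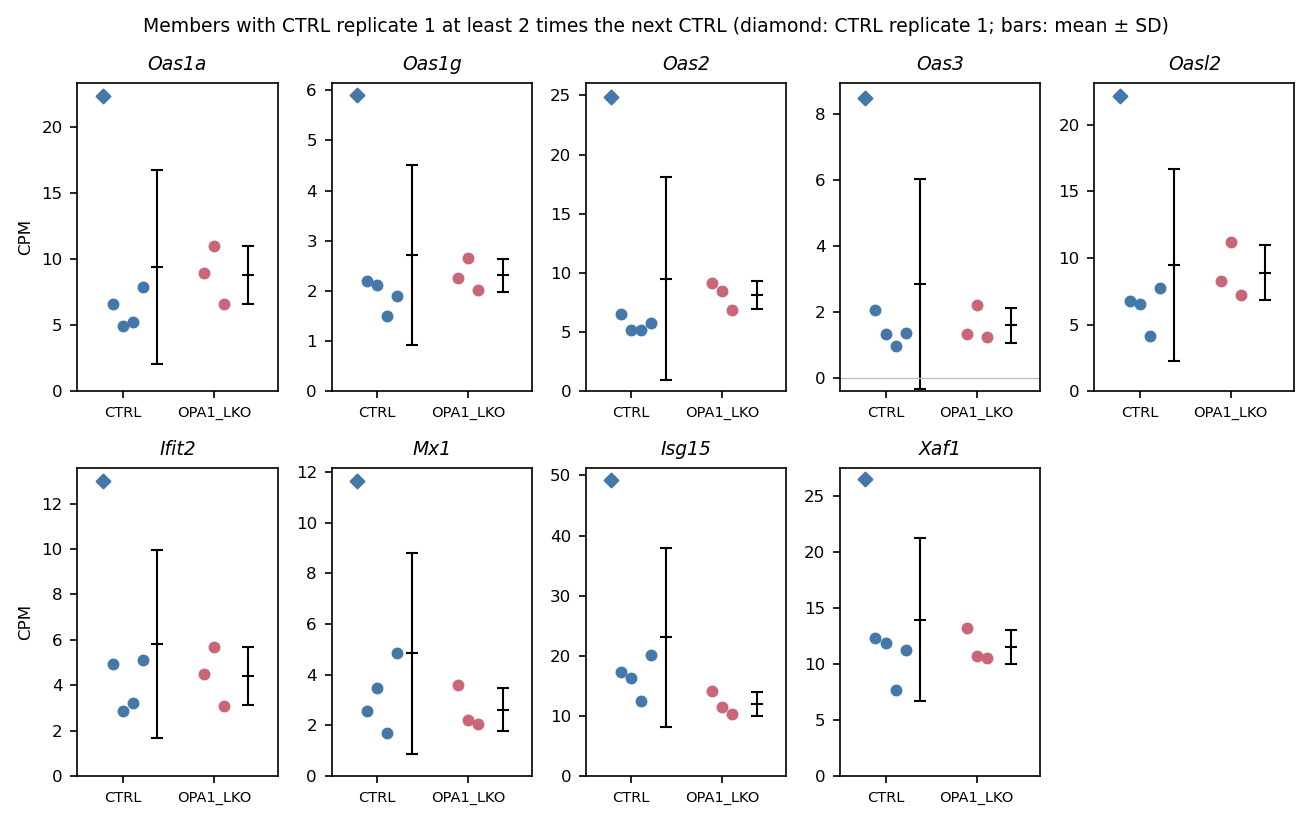
CPM of the 9 genes in which CTRL replicate 1 (diamond) was at least 2 times the next CTRL library, by group, with mean ± SD (5 CTRL, 3 OPA1_LKO). In each panel 1 CTRL library lies above all other libraries of both groups.

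Of the IFIT family, Ifit1 encodes a protein that binds viral RNA lacking the host's cap methylation. Ifit1 had the largest fold change of the 7 genes that passed. It measured 39.7, 18.3, 22.3, 20.3 and 29.7 CPM across CTRL, against 11.5, 8.46 and 10.003 CPM across OPA1_LKO. The OPA1_LKO libraries were all below the lowest CTRL, and CTRL replicate 1 was the highest. The means were 26.1 ± 8.75 and 9.99 ± 1.52 CPM, 2.61-fold lower, with a log2 fold change of -1.38 (SE 0.26, adjusted p = 0.0163 by edgeR). It was -1.18 (adjusted p = 0.00624) without CTRL replicate 1.

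Ifit3 measured 61.8, 24.2, 24.7, 21.9 and 33.9 CPM across CTRL, against 19.2, 17.9 and 12.8 CPM across OPA1_LKO. Ifit3b was at 11.3, 3.76, 3.35, 4.32 and 6.59 CPM against 2.63, 3.15 and 1.66 CPM. Neither gene's groups overlapped, while the log2 fold changes of -0.997 (SE 0.34, adjusted p = 0.115 by edgeR) and -1.23 (SE 0.43, adjusted p = 0.118) did not pass. Ifit2 differed from these in its overlap, at 13.01, 4.94, 2.85, 3.22 and 5.10 CPM against 4.48, 5.67 and 3.08 CPM.

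The other antiviral effectors held no gene that passed. Rsad2 (viperin), which makes a chain-terminating nucleotide, and its neighbour Cmpk2, a mitochondrial nucleotide kinase, lie 12665 bases apart on chromosome 12. Rsad2 measured 18.5, 5.96, 5.31, 9.40 and 15.8 CPM across CTRL, against 4.48, 5.26 and 3.26 CPM across OPA1_LKO. Cmpk2 was at 14.1, 5.67, 4.98, 4.94 and 8.54 CPM against 3.74, 3.15 and 2.43 CPM. In both, CTRL replicates 1 and 5 were high and no OPA1_LKO library reached the lowest CTRL. The log2 fold changes were -1.34 (SE 0.43, adjusted p = 0.0951 by edgeR) for Rsad2 and -1.30 (SE 0.38, adjusted p = 0.0733) for Cmpk2. Cmpk2 passed, at -0.95 (adjusted p = 0.0431), without CTRL replicate 1.

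Mx1 and Mx2, dynamin-like GTPases that trap viral components, are both marked as transcribed pseudogenes in this build's RefSeq annotation. Mx2 measured 8.98, 7.698, 4.08, 7.75 and 10.3 CPM across CTRL, against 5.22, 4.27 and 4.44 CPM across OPA1_LKO. CTRL replicate 3 lay below all OPA1_LKO libraries, and the log2 fold change was -0.74 (SE 0.27, adjusted p = 0.135 by edgeR). Mx1 was at 11.6, 2.58, 3.47, 1.71 and 4.87 CPM against 3.60, 2.20 and 2.07 CPM. Bst2 (tetherin), which holds budding virions at the cell surface, was at 146, 108, 117, 108 and 144 CPM against 135, 144 and 116 CPM. Its log2 fold change was 0.07 (SE 0.16), and the exonuclease gene Isg20 had one of -0.03 (SE 0.26).

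Isg15 encodes a ubiquitin-like protein that is joined to other proteins, and Usp18 the protease that removes it and also damps the type I receptor. Isg15 measured 49.2, 17.2, 16.3, 12.6 and 20.2 CPM across CTRL, against 14.1, 11.5 and 10.4 CPM across OPA1_LKO. One OPA1_LKO library lay above the lowest CTRL. The log2 fold change of -0.95 (SE 0.41, adjusted p = 0.194 by edgeR) went to -0.46 (adjusted p = 0.128) without CTRL replicate 1. Usp18 was at 32.5, 13.3, 9.62, 15.8 and 18.5 CPM against 19.99, 17.2 and 15.2 CPM, with a log2 fold change of -0.04 (SE 0.33).

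Among the transcription factors, Irf1, a factor induced early by interferon gamma, passed the test. It measured 48.1, 46.7, 40.4, 27.99 and 35.5 CPM across CTRL, against 21.2, 26.7 and 23.2 CPM across OPA1_LKO. The highest OPA1_LKO library lay just below CTRL replicate 4. The means were 39.7 ± 8.28 and 23.7 ± 2.77 CPM, with a log2 fold change of -0.75 (SE 0.19, adjusted p = 0.0459 by edgeR), and -0.67 (adjusted p = 0.0430) without CTRL replicate 1. Irf1 was the gene lost with each of 2 other scalings, with no filter and with the stricter filter, where its adjusted p ranged from 0.0503 to 0.0828, and it passed in 2 of the 8 fits that each leave out a library. Irf7, the factor that amplifies interferon production, was at 119.8, 63.2, 44.6, 39.8 and 48.5 CPM against 38.8, 40.7 and 30.5 CPM. CTRL replicate 1 was far above the rest, and the log2 fold change of -0.78 (SE 0.34, adjusted p = 0.198) went to -0.42 (adjusted p = 0.158) without it. Irf9 was at 39.1, 39.3, 29.0, 37.1 and 36.3 CPM against 27.98, 31.9 and 29.1 CPM (log2 fold change -0.29, SE 0.13, adjusted p = 0.226). Stat2, its partner, was at 92.4, 62.6, 87.7, 63.2 and 75.3 CPM against 71.5, 53.3 and 87.4 CPM, with overlapping groups and a log2 fold change of -0.11 (SE 0.20).

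Dtx3l, a ubiquitin ligase, works as a complex with Parp9, and Parp14 is another ADP-ribosyltransferase of the same locus on chromosome 16. Dtx3l measured 25.6, 32.0, 21.5, 34.4 and 30.6 CPM across CTRL, against 13.7, 19.5 and 14.9 CPM across OPA1_LKO. CTRL replicate 1 was not the highest here, and the groups did not overlap. The log2 fold change was -0.85 (SE 0.19, adjusted p = 0.0294 by edgeR), and -0.88 (adjusted p = 0.0201) without CTRL replicate 1. Parp9 was at 32.8, 40.8, 27.5, 47.3 and 45.2 CPM against 25.3, 27.7 and 19.1 CPM, and its log2 fold change of -0.69 (SE 0.20) had an adjusted p of 0.0786. It passed, at -0.74 (adjusted p = 0.0462), without CTRL replicate 1. The 2 genes overlap by 557 bases, and the strand setting of the counting is not known here, so reads in the overlap may be shared. Parp14 was at 31.4, 22.1, 18.8, 16.9 and 27.3 CPM against 14.7, 17.6 and 12.7 CPM (log2 fold change -0.63, SE 0.22, adjusted p = 0.115).

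The interferon-inducible GTPases, which act on the vacuoles of intracellular pathogens, held 2 of the 7 genes. Irgm1, a regulator of the other immunity-related GTPases, measured 62.7, 58.8, 37.6, 55.3 and 64.6 CPM across CTRL, against 25.3, 32.9 and 21.2 CPM across OPA1_LKO. The groups did not overlap, with CTRL replicate 3 the lowest CTRL. The means were 55.8 ± 10.8 and 26.5 ± 5.95 CPM, with a log2 fold change of -1.07 (SE 0.21, adjusted p = 0.0180 by edgeR), and -1.03 (adjusted p = 0.0172) without CTRL replicate 1.

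Gbp7, a guanylate-binding protein, measured 7.65, 7.14, 7.10, 7.82 and 8.82 CPM across CTRL, against 4.99, 4.05 and 4.26 CPM across OPA1_LKO. Its CTRL libraries were close together, CTRL replicate 1 included, and all lay above OPA1_LKO. The log2 fold change was -0.80 (SE 0.16, adjusted p = 0.0215 by edgeR) and stayed at -0.80 (adjusted p = 0.0216) without CTRL replicate 1. Igtp (Irgm3), a second GTPase of the family, was at 34.9, 34.8, 27.8, 32.4 and 59.4 CPM against 22.1, 25.8 and 19.2 CPM. Its groups did not overlap, CTRL replicate 5 was far above the rest, and the adjusted p was 0.0926 (log2 fold change -0.76, SE 0.24). Gbp2 was at 5.84, 4.78, 3.75, 2.95 and 15.5 CPM against 2.49, 5.13 and 2.72 CPM. Gbp3 was at 17.3, 8.99, 9.002, 8.64 and 14.3 CPM against 7.11, 9.35 and 7.69 CPM. Both overlapped between groups.

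**Figure D3:**
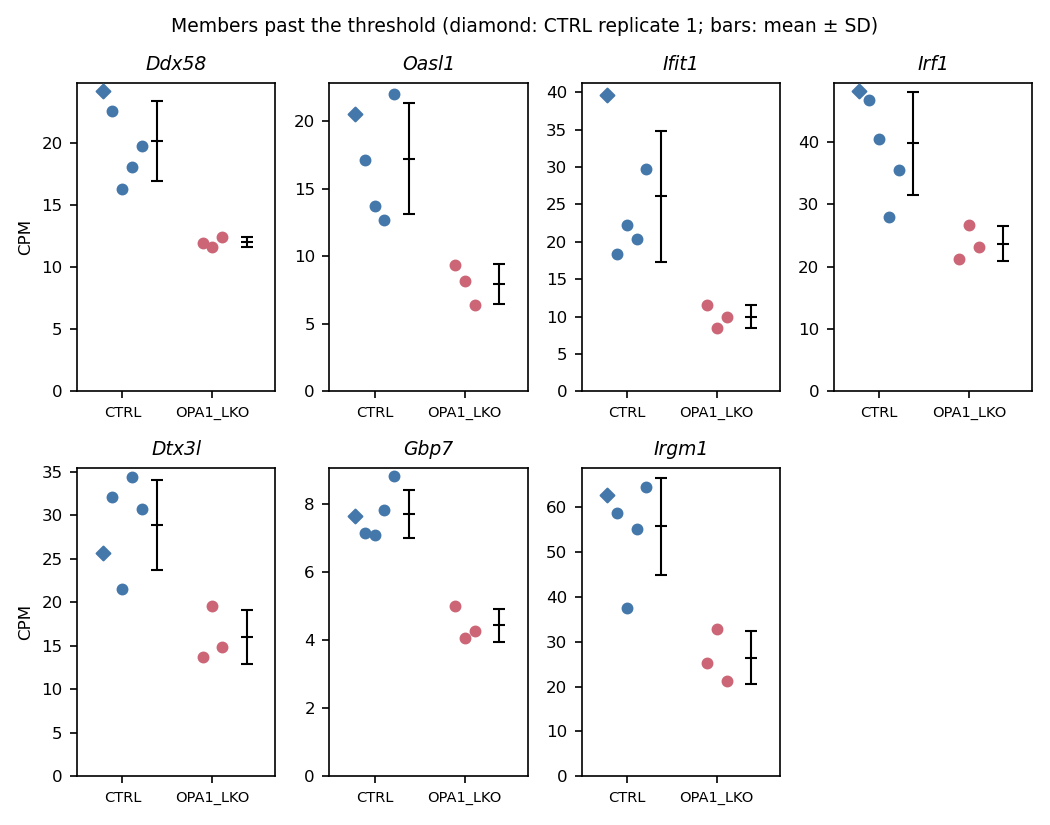
CPM by group of the 7 genes that were lower in OPA1_LKO, with mean ± SD (5 CTRL, 3 OPA1_LKO) and CTRL replicate 1 as a diamond. Each panel shows all 3 OPA1_LKO libraries below all 5 CTRL libraries.

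None of the other 6 induced genes passed. Rtp4, a chaperone of receptor trafficking, measured 27.0, 19.7, 15.1, 19.3 and 16.6 CPM across CTRL, against 9.19, 15.97 and 10.2 CPM across OPA1_LKO (log2 fold change -0.73, SE 0.24, adjusted p = 0.0996 by edgeR). Trim30a was at 6.69, 5.06, 3.02, 5.35 and 7.22 CPM against 3.79, 4.498 and 2.43 CPM. In Rtp4 a single OPA1_LKO library overlapped CTRL, and in Trim30a only OPA1_LKO replicate 3 lay below all CTRL. Ifi35 was at 37.4, 36.1, 30.9, 24.3 and 29.2 CPM against 29.4, 25.4 and 27.5 CPM, within its CTRL range. Xaf1 and Ifi44 were highest in CTRL replicate 1, at 26.6 and 9.72 CPM, and had log2 fold changes of -0.28 (SE 0.34) and -0.15 (SE 0.28). Ifi27, which encodes a small mitochondrial membrane protein, was at 134, 112, 64.5, 93.1 and 100.3 CPM against 107, 139.6 and 96.2 CPM. Ifi27, with Bst2 and Oas1b, was one of the 3 genes with a positive value, of 0.18 (SE 0.22).

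**Figure D4:**
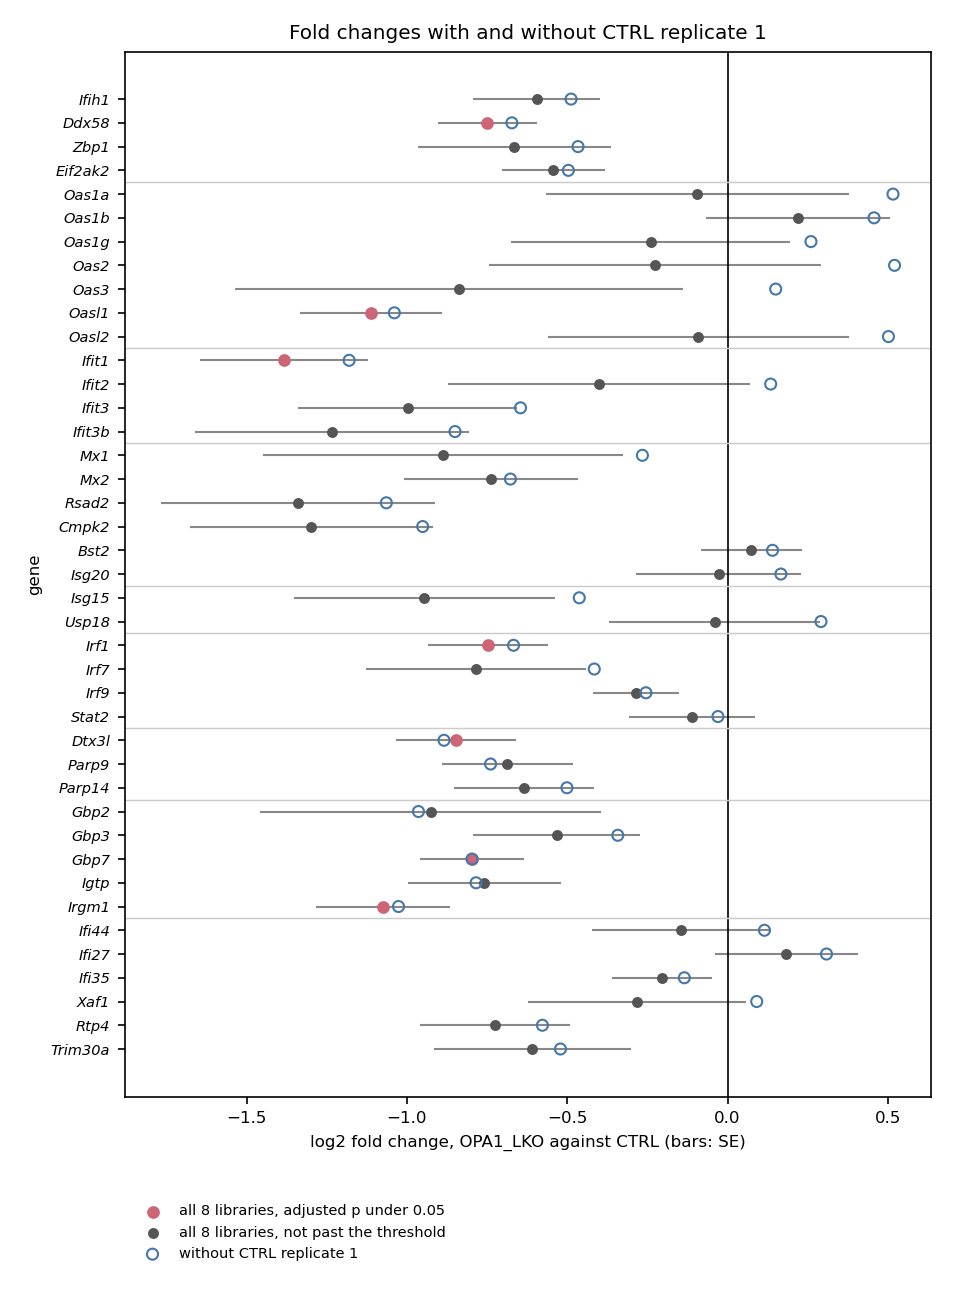
Log2 fold change of each of the 41 genes, OPA1_LKO against CTRL, with its SE from all 8 libraries (filled points) and without CTRL replicate 1 (open circles). The open circles of Oas1a, Oas1g, Oas2, Oas3, Oasl2, Ifit2, Isg20, Usp18, Ifi44 and Xaf1 lie to the right of 0 and their filled points to the left.

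The role groups thus depended to different degrees on CTRL replicate 1. For 36 of the 41 genes the log2 fold change was higher without that library, and for 10 it went from negative to positive. By the difference in mean log2 CPM, the inducible GTPases moved little, from -0.75 to -0.71, and the PARP and DTX3L group from -0.71 to -0.70. The OAS family went from -0.13 to 0.19, and the IFIT family from -0.89 to -0.63. The library was at least 2 times the next CTRL for 9 of the 41, beside 5.02% of all tested genes. These 9 were Oas1a, Oas1g, Oas2, Oas3, Oasl2, Ifit2, Mx1, Isg15 and Xaf1.

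Per length, in TPM, the most abundant of the 41 was Bst2, at 210.3 ± 59.1 in CTRL and 246 ± 46.6 in OPA1_LKO, followed by Ifi27 at 132 ± 53.5 and 163 ± 42.1. Isg15 came next, at 42.0 ± 34.3 in CTRL and 22.9 ± 5.11 in OPA1_LKO, and then Irf7, at 41.5 ± 28.8 and 25.6 ± 5.77. Their groups overlapped in TPM, and CTRL replicate 1 was the highest CTRL library, at 102.4 TPM for Isg15 and 90.9 TPM for Irf7. The least abundant were Oas3, at 0.716 ± 0.916 in CTRL, Gbp7 at 1.45 ± 0.267 and Trim30a at 1.58 ± 0.618. Among the genes that passed in CPM, Irgm1 was at 29.9 ± 9.13 and 15.6 ± 4.55 TPM and Ifit1 at 11.1 ± 5.41 and 4.59 ± 0.791 TPM. In TPM, 3 of the 41 genes (Oasl1, Ifit1 and Gbp7) had no overlap, with OPA1_LKO lower, against 2.79% of all tested genes.

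The other genes of the pathway were read from a list of 62, of which 40 could be tested. Of these, edgeR called 1 higher in OPA1_LKO and 0 lower, where 3.34% and 2.69% of all genes were called. DESeq2 called 2 higher and 1 lower, where it called 5.99% and 6.06% of all genes. In edgeR 12 were at an unadjusted p under 0.05, beside 23.8% of all genes. The share called higher by edgeR is thus no larger than the background. None of the 21 interferon ligand genes had enough counts to test, and they held between 1 and 6 counts per library in all. Among the receptor chains, Ifnar1 had 34.4 ± 2.72 CPM across CTRL against 31.5 ± 2.19 CPM across OPA1_LKO, with a log2 fold change of -0.13 (SE 0.12). Ifnar2 was at 82.6 ± 8.63 and 63.3 ± 5.42 CPM (log2 fold change -0.38, SE 0.13, adjusted p = 0.121 by edgeR). For interferon gamma, Ifngr1 was at 16.6 ± 3.85 and 25.5 ± 4.40 CPM (log2 fold change 0.62, SE 0.19, adjusted p = 0.0853) and Ifngr2 at 20.9 ± 4.70 and 14.4 ± 2.58 CPM (log2 fold change -0.54, SE 0.20, adjusted p = 0.147). Without CTRL replicate 1, Ifngr1 passed at 0.78 (adjusted p = 0.0118). Il10rb, the shared chain of the lambda receptor, had a log2 fold change of 0.06 (SE 0.41).

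Ifnlr1, the specific chain of the lambda interferon receptor, was the gene that passed. Its counts were 4, 4, 14, 3 and 4 in CTRL and 32, 25 and 25 in OPA1_LKO. All OPA1_LKO libraries were above all CTRL, and CTRL replicate 3 was the highest CTRL. The log2 fold change was 2.01 (SE 0.49, adjusted p = 0.0410 by edgeR), and 1.88 (adjusted p = 0.0360) without CTRL replicate 1. The call held in 2 of the 8 fits that each leave out a library. The bile duct markers Krt19, Epcam, Sox9 and Krt7 had a summed CPM of 3.51, 3.60, 42.3, 3.16 and 4.24 in CTRL. Across OPA1_LKO their sum was 16.8, 25.6 and 17.5. CTRL replicate 3 was above every OPA1_LKO library in that sum, but below every one of them in Ifnlr1. Its sum came mostly from Krt19 (22.3 CPM) and Epcam (16.8 CPM). In Sox9 it had 2.01 CPM, against 3.88 to 6.57 CPM across OPA1_LKO. In Krt7 it had 1.17 CPM against 2.86 to 4.41 CPM, so in both it lay below every OPA1_LKO library, as in Ifnlr1. Of these markers, edgeR called Sox9 and Krt7 higher (adjusted p = 0.0161 and 0.0192), beside 3.34% of all genes. It did not call Epcam (log2 fold change 0.96, SE 1.04) or Krt19 (-0.50, SE 1.23). The part of these markers in the result was not tested. Without CTRL replicate 1 the pathway list gave 3 genes higher and 1 lower, where 6.65% and 5.59% of all genes were called. The higher genes were Ifnlr1, Ifngr1 and Tmem173, which encodes STING. The lower gene was Mavs, the mitochondrial adaptor of Ddx58 and Ifih1, at -0.67 (adjusted p = 0.0445 by edgeR).

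Macrophages respond to interferon as well as hepatocytes, so their markers are given beside the score. The Kupffer cell sum (Clec4f, Vsig4, Cd5l, Timd4, Marco and Adgre1) was 678, 315, 149, 149.8 and 135 CPM across CTRL, against 167, 171 and 122 CPM across OPA1_LKO. The recruited macrophage sum (Ccr2, Cd68, Itgax, Trem2, Gpnmb and Lyz2) was 346, 72.1, 54.8, 41.3 and 69.8 CPM against 111, 154 and 74.1 CPM. CTRL replicate 1 was thus the highest library in both sums and in the score of the 41 genes, whereas CTRL replicate 5, second in the score, had the lowest Kupffer sum of the CTRL. Among CTRL replicates 2 to 5 the recruited macrophage sum was below every OPA1_LKO library. In the fit of all libraries edgeR called 0 of the 6 Kupffer markers, with 1 (Timd4) at an unadjusted p under 0.05, beside 23.8% of all genes. The log2 fold change was negative for 5 of them and positive for Marco (0.90, SE 0.47). Of the 6 recruited macrophage markers edgeR called 3 higher (Itgax, Trem2 and Gpnmb) once CTRL replicate 1 was left out, beside 6.65% of all genes. In Ccr2, Cd68 and Lyz2 the OPA1_LKO libraries overlapped CTRL replicates 2 to 5. The sum of the hepatocyte markers Alb, Apoa1, Ttr and Cps1 ranged from 55461 to 97000 CPM in CTRL and from 65774 to 85904 CPM in OPA1_LKO. Endothelial sums ranged from 69.7 to 126.6 CPM against 64.1 to 128.1 CPM, and stellate cell sums from 48.2 to 76.3 CPM against 73.8 to 121.3 CPM. Lymphocyte sums were low, from 2.30 to 7.701 CPM against 5.49 to 6.93 CPM for T and NK cells and from 5.35 to 9.28 CPM against 6.61 to 16.99 CPM for B cells. Neutrophil sums ranged from 2.42 to 14.6 CPM against 1.93 to 4.20 CPM. Plasmacytoid dendritic cells are the main makers of type I interferon, and the sum of their markers Siglech, Ccr9, Cox6a2 and Klk1 ranged from 0.617 to 4.09 CPM in CTRL and from 5.68 to 9.10 CPM in OPA1_LKO. With all libraries the groups overlapped in all of these lists but the last. For T and NK cells the overlap came from CTRL replicate 1 alone. CTRL replicates 2 to 5 reached at most 4.87 CPM there, below every OPA1_LKO library. Without CTRL replicate 1 edgeR called 0 of the 5 tested T and NK markers. The separation in the plasmacytoid dendritic cell list rests on Cox6a2. Without that gene the sums ranged from 0.617 to 3.66 CPM in CTRL and from 1.83 to 2.56 CPM in OPA1_LKO and overlapped. In that list edgeR called Cox6a2, also a muscle gene, higher (adjusted p = 0.00285) and not Siglech (log2 fold change 0.38, SE 0.52). None of the markers was at 0 in all libraries, and their part in the result was not tested.

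**Figure D5:**
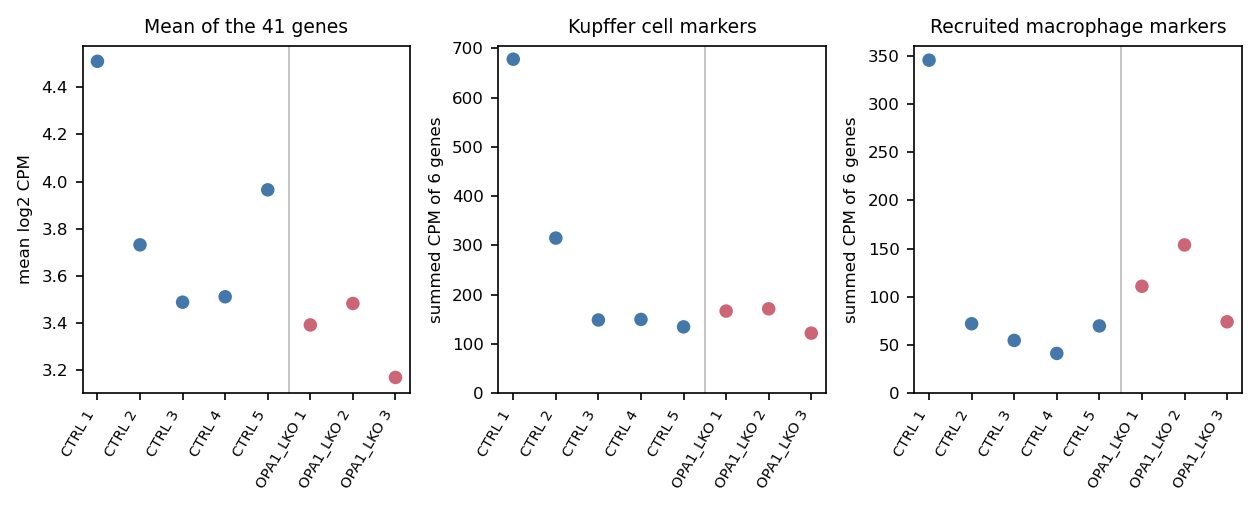
Mean log2 CPM of the 41 genes (left) and the summed CPM of 6 Kupffer cell markers (middle) and 6 recruited macrophage markers (right) in each library. CTRL replicate 1 is the highest in all 3 panels, at 4.51, 678 and 346, and OPA1_LKO replicate 3 has the lowest score, at 3.17.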

How the data were processed

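RNA was measured by stranded mRNA sequencing of liver, per the labels' protocols. Tools named in the submitters' processing notes, none with a version, are STAR, StringTie, RSEM and MultiQC, and the build is mm10. The authors deposited expected counts and TPM per gene and per transcript, estimated by RSEM, with no normalisation beyond the TPM scaling. The strand setting of the counting is not given in the sources used here.

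Gene expected counts were rounded, filtered with filterByExpr (a count minimum of 10 and a total of 15), scaled by TMM and tested by group alone with edgeR 4.0.16 (R 4.3.3). P-values were adjusted by Benjamini-Hochberg over 14036 genes, and under 0.05 was called. Scores are mean log2 CPM with a prior count of 2. DESeq2 1.42.0 and limma 3.58.1 on log2(TPM + 1) or log2(TPM + 0.1) were alternatives, as were other scalings, filters and each library left out in turn. The fit was tested on simulated counts.

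The 41 genes, the pathway and marker lists and the tests were chosen with earlier results of these data known. Values in every library are given for the genes that passed, for the 3 smallest p-values of each role group and for further genes. Apoe, Xist and Ddx3y were named outside that rule, with their values already known. Some genes of the pathway list are counted but not reported singly here.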

Additional observations from a re-analysis of the deposited data

Results flagged for a closer look

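In 18 of the 64 values examined, 1 library of the 5 CTRL lay far from the other 4, by the gap to its nearest neighbour over the range of the group. Chance flags about 1 in 20 such groups only where the values are independent and normally distributed. Many of these values share a library, and Apoe and Xist were included with their values already known. The 18 of 64 can therefore not be set against that rate.

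CTRL replicate 1 stood apart in 14 of them. Among the interferon-stimulated genes it was high for Oas1a (22.3 CPM), Oas1g (5.89 CPM), Oas2 (24.9 CPM), Oas3 (8.50 CPM), Oasl2 (22.1 CPM), Ifit2 (13.01 CPM), Isg15 (49.2 CPM), Ifi44 (9.72 CPM) and Xaf1 (26.6 CPM). The same library was apart for Ifngr1, at 23.3 CPM, for Xist, at 8.13 CPM, and for the sums of recruited macrophage markers, at 346 CPM, and of neutrophil markers, at 14.6 CPM. Its Apoe level was low, at 133.8 CPM, while the remaining 7 libraries ranged from 20759 to 33180 CPM.

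CTRL replicate 5 was high for the GTPase genes Gbp2, at 15.5 CPM, and Igtp, at 59.4 CPM. CTRL replicate 3 was high for Ifnlr1, at 0.783 CPM, and for the sum of bile duct markers, at 42.3 CPM.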

How the results depend on the processing

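The count of interferon-stimulated genes called lower was 7. It was 14 with DESeq2, 4 with the replicate number as a block, 0 with limma on each of 3 TPM scales, and 0 to 9 with 1 library left out. It was 6 with each of 2 other scalings, with no filter and with a stricter one, each without Irf1. The count of higher genes was 0 in each of these fits. All genes called lower (377) became 851 with DESeq2, 238 with no filter, 174 with the block, 76, 86 and 59 with limma on log2(TPM + 1), on log2(TPM + 0.1) and on log2(TPM + 1) unfiltered, and 54 to 777 with a library left out. All genes called higher (469) became 841, 193 with the block, 307 and 281 with filtered limma, and 144 to 924 with a library left out. Together these were 846, against 1692 with DESeq2, 367 with the block, 383, 367 and 418 with limma, and 198 to 1701 with a library left out. The pathway list gave 1 lower with DESeq2 (0 in the main fit) and 0 to 1 with a library left out, and for higher genes 2 with DESeq2, 0 with no filter, with filtered limma and with the block, and 0 to 3 with a library left out.

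The median log2 fold change of -0.67 ranged from -0.74 to -0.47 with a library left out and was -0.33 with limma on log2(TPM + 1), filtered or not, where the median of all genes moved by 0.12 and 0.058. The score difference ranged from -0.56 to -0.33 with a library left out. The same-numbered libraries correlated at 0.0720, 0.0537 and 0.175 in their deviations, so the numbers were not taken to pair the samples, and the block kept 4 of the 7 calls (Ifit1, Irf1, Irgm1 and Oasl1).

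Log2 fold changes turned positive under limma on log2(TPM + 1), log2(TPM + 0.1) and unfiltered for Oas1a (0.24, 0.30, 0.24), Oas1g (0.011, 0.092, 0.011), Oas2 (0.095, 0.21, 0.095), Oasl2 (0.22, 0.30, 0.22), Isg20 (0.14, 0.17, 0.14), Usp18 (0.21, 0.24, 0.21), Stat2 (0.046, 0.049, 0.046) and Ifi44 (0.040, 0.080, 0.040). With upper-quartile factors Isg20 was 0.044 and Usp18 0.031, and with the block Usp18 was 0.094. With a library left out, the ranges were -0.28 to 0.52 for Oas1a, -0.37 to 0.26 for Oas1g, -0.37 to 0.52 for Oas2, -1.14 to 0.15 for Oas3, -0.29 to 0.50 for Oasl2, -0.62 to 0.13 for Ifit2, -0.11 to 0.17 for Isg20, -0.18 to 0.29 for Usp18, -0.27 to 0.056 for Stat2, -0.23 to 0.12 for Ifi44 and -0.42 to 0.091 for Xaf1. The cause of these changes was not tested.

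Of the 7 called genes, Irgm1 passed in 6 of 8 fits with a library left out, Oasl1 and Ifit1 in 5, Gbp7 in 4, Ddx58 and Dtx3l in 3 and Irf1 in 2. Ifnlr1, with 3 to 14 counts in CTRL libraries, passed in 2, with adjusted p-values from 0.00694 to 0.171.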
